A study of Mus musculus with 15 samples.

Results

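The respiratory chain subunits described here are 90 of the 23420 mouse genes in the deposited tables. They were chosen by name: the Ndufa, Ndufb, Ndufc, Ndufs and Ndufv genes of complex I, Sdha to Sdhd of complex II, the Uqcr genes of complex III, the Cox4 to Cox8 genes of complex IV, the Atp5 genes of the ATP synthase (complex V), and the mt-Nd, mt-Co, mt-Cytb and mt-Atp genes. Of 92 matching entries, 2 pseudogenes were left out. The nucleus encodes 83 of the members (37 of complex I, 4 of complex II, 8 of complex III, 18 of complex IV and 16 of complex V) and the mitochondrial genome 7 (mt-Nd1, mt-Nd2, mt-Nd4, mt-Nd5, mt-Nd6, mt-Cytb and mt-Co1). The genes mt-Nd3, mt-Nd4l, mt-Co2, mt-Co3 and those named mt-Atp had no entry among the matches. Mitochondrial sums and ratios below therefore cover the 7 listed genes only and hold no mitochondrial gene of complex V. All 90 are protein-coding in GENCODE M21, and none was at 0 reads in every library.

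Newborn mice (postnatal day 1) gave the epidermis and the tongue. Some were wild type and the others were labelled knockouts of the 7 protease genes Tmprss11a to Tmprss11g, targeted together by gene editing. Knockouts gave 4 libraries for each tissue, and wild types gave 3 for epidermis and 4 for tongue, so 4 groups and 15 libraries were compared. The A-numbers in the labels name 9 animals, and 6 of them, including all 4 knockouts, supplied both tissues. Wild type and knockout shared the strain label, the age and the preparation, in which epidermis was peeled from dermis after warming in EDTA. The labels name no clone, founder line or sex.

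The respiratory chain passes electrons from NADH and succinate to oxygen through complexes I to IV, pumps protons across the inner mitochondrial membrane, and lets the ATP synthase make ATP from the gradient. Apart from complex II, its enzymes are assembled from subunits of both genomes. The mitochondrial genome is transcribed as long precursors that are cut into single messages, while each nuclear subunit has a gene of its own. Several subunits of complex IV, or cytochrome c oxidase, exist as a general form and as a form made in heart, skeletal muscle or brown fat, among them COX6A, COX7A and COX8. Tongue is rich in skeletal muscle, and epidermis is a layered epithelium of keratinocytes.

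The muscle forms carried the widest tissue difference below, so the coding sequences of COX6A and COX8 are shown with their general counterparts, 5′ to 3′ from GENCODE M21 transcripts, with the longest stretch shared by the pair in capitals. For Cox6a1 only the last 300 bases (40 to 339) are given. Cox6a2 lies on chromosome 7 (GRCm38, 128205435 to 128206387, minus strand) and Cox6a1 on chromosome 5 (115345642 to 115348981, minus strand). Cox8b lies on chromosome 7 (140898945 to 140900446, minus strand) and Cox8a on chromosome 19 (7215153 to 7217616, minus strand).
Cox6a2: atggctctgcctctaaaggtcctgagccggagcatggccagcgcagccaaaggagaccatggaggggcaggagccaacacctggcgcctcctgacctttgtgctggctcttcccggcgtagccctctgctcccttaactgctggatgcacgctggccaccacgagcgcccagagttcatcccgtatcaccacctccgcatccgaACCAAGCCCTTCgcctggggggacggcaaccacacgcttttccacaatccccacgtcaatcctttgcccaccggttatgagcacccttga
Cox6a1: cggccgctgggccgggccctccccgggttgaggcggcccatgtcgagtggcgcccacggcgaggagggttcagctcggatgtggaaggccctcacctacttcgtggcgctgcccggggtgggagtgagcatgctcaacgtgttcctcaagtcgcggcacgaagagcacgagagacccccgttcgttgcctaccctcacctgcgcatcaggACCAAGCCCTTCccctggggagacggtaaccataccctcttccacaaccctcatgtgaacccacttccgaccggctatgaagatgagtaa
Cox8b: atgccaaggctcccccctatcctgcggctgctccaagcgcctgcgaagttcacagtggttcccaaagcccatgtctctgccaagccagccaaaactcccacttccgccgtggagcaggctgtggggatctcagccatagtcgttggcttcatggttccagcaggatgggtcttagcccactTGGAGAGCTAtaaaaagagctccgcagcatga
Cox8a: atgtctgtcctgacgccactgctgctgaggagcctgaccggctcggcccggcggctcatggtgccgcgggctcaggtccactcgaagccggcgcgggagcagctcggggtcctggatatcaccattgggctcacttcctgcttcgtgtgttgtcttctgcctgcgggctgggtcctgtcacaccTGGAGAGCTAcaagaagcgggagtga
Over the aligned bases the coding sequences were 66.6% identical for Cox6a2 and Cox6a1 and 68.6% identical for Cox8b and Cox8a. For Cox7a1 and Cox7a2, a pair that is not printed, identity was 67.4%. The longest shared stretch was 12, 10 and 12 bases for COX6A, COX8 and COX7A, also over the whole transcripts. It is shorter than the 37-base reads, so no read within these transcripts fits both forms of a pair exactly.

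Some members also share sequence with genes outside these pairs, and their levels are uncertain to that extent. In the pairs above, the shared part of the 37-base words was 19.6% for Cox6a1, 5.28% for Cox6a2 and 1.93% for Cox7a2. Cox7a1, Cox8a and Cox8b shared none. Other members share more. All 37-base words of Atp5g2 also occur in transcripts of other genes. The shared part was 85.2% for Atp5l, 67.0% for Atp5g1, 62.6% for mt-Nd4, 59.1% for Atp5o, 59.0% for mt-Co1, 57.4% for Atp5h and 54.2% for Cox7c. The ends of mt-Nd5 and mt-Nd6 overlap on opposite strands (mitochondrial positions 13552 to 13565), Ndufa4l2 overlaps Shmt2 and Cox6a2 overlaps Itgad in antisense. The library kits are not stated to mark strand, so reads in these overlaps cannot be assigned to a strand.

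Counted reads ran from 10117938 to 17819847 a library. Reads on 6 of the targeted genes, the seventh not analysed here, summed to 2756 to 4876 in wild-type and 2079 to 3022 in knockout epidermis, and to 3813 to 5036 in wild-type and 1417 to 2455 in knockout tongue. Reads on the targeted genes were thus still counted in knockouts, and their number alone does not check the label in epidermis. The labelled tissues had their defining markers: 10 keratinocyte genes summed to 28566 to 62534 CPM (reads scaled by library size and TMM factors) in epidermis and 3190 to 4260 in tongue, and 12 skeletal muscle genes to 93.3 to 729 CPM in epidermis and 30477 to 53122 CPM in tongue. The library epidermis WT 1 stood apart, with 44.6% of its reads on mitochondrial ribosomal RNA against 20.1% to 23.8% in the other epidermis libraries. Tongue KO 3 also stood apart, with 78262 CPM of mt-Rnr1, the small mitochondrial ribosomal RNA, against 19735 to 23461 CPM in the other tongue libraries. Several counts and medians of the nuclear and mitochondrial members are also given without epidermis WT 1 or tongue KO 3. Medians by complex, marker counts and the other gene lists are given with all libraries only.

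Nuclear-encoded subunits were lower in epidermis than in tongue across all 5 complexes, in wild-type and in knockout animals. Summed over the 83 members, wild-type epidermis held 1708 CPM in WT 1, 3898 in WT 2 and 3740 in WT 3, and wild-type tongue held 12142, 11778, 13097 and 12476 CPM. Knockout epidermis held 3010, 3376, 4090 and 3941 CPM and knockout tongue 11734, 12907, 9372 and 13009 CPM. Every epidermis library thus lay below every tongue library, including WT 1 and tongue KO 3. Without the muscle forms Cox6a2, Cox7a1 and Cox8b the sums were 1706 to 4089 CPM in epidermis and 9223 to 12887 CPM in tongue. In bulk tissue, fewer cells of a type and less RNA per cell cannot be told apart. The muscle, keratinocyte, fibroblast (132 to 430 CPM in epidermis, 4887 to 6178 in tongue) and endothelial markers (2.05 to 8.05 CPM and 265 to 406 CPM) differed between the same tissues. In wild type 12 of 12 muscle, 6 of 6 fibroblast and 4 of 4 endothelial markers were called lower in epidermis and 9 of 10 keratinocyte markers higher, and their part in the result was not tested.

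**Figure D1:**
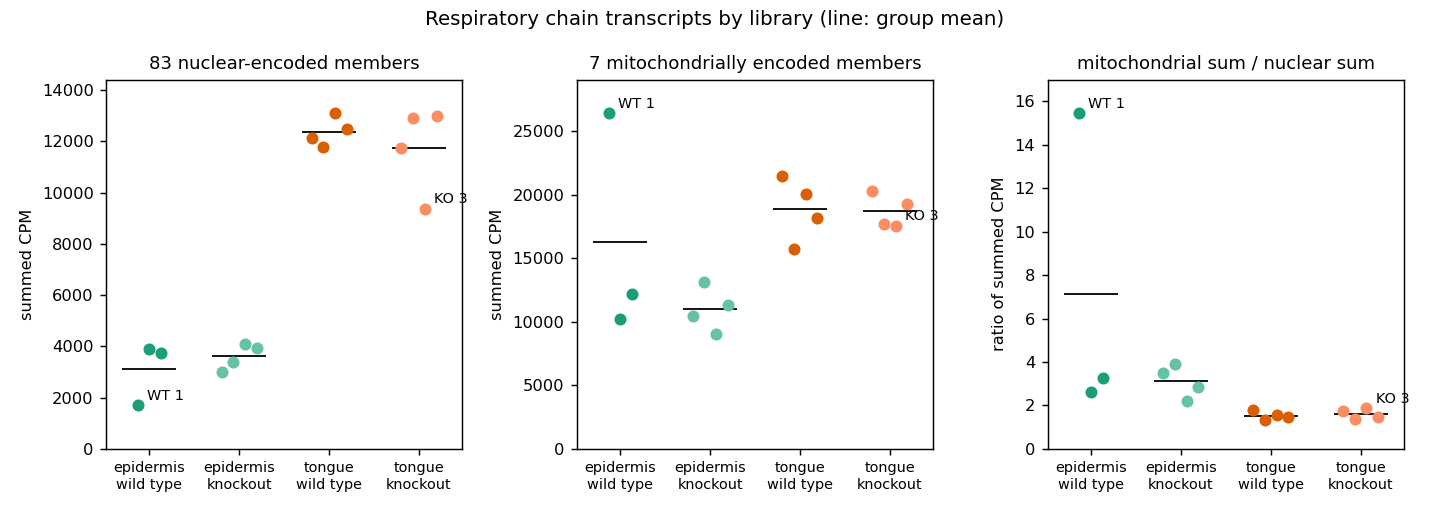
Summed CPM of the 83 nuclear-encoded members (left), of the 7 mitochondrially encoded members (middle) and the ratio of the sums (right), a point for each library and a line at each group mean. Epidermis WT 1 has the lowest nuclear sum (1708 CPM), the highest mitochondrial sum (26392 CPM) and a ratio of 15.5, and all other ratios lie between 1.34 and 3.88.

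In wild type, edgeR's quasi-likelihood test called 75 of the 81 nuclear members it could test lower in epidermis and 1 higher, at a Benjamini-Hochberg adjusted p under 0.05 over all 16577 genes. The tissues differ widely: 63.6% of all genes were called, 31.6% lower and 32% higher. The median log2 fold change of the nuclear members was -2.01, beside 0.03 for all genes. In the knockout 74 of 80 were lower and 1 was higher, with a median of -1.73 beside 0.07 for all 16398 genes, of which 63.8% were called, 31.1% lower and 32.7% higher. Groups did not overlap, with epidermis the lower, for 76 nuclear members in wild type (33.9% of all genes, and 65.7% in either direction) and for 74 in the knockout (29.9%, and 58.5% in either direction). An unadjusted p under 0.05 was reached by 77 and 75 nuclear members, beside 67.2% of all genes in each genotype. Log2 fold changes were above 0 for 2 nuclear members in each, beside 50.9% of all genes in wild type and 52.5% in the knockout. The members share libraries and many cells, so they are not replicates of the tissue. Without epidermis WT 1, which was lowest of its group for 77 of the 83 nuclear members, 76 of 81 were lower and the median was -1.69, with 71.3% of all genes called.

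Complex I, which takes electrons from NADH, had 35 of 37 nuclear members lower in wild-type epidermis, with a median log2 fold change of -1.87. The 7 core subunits among them, homologous to the bacterial enzyme, had a median of -1.75 and the 30 others, counted as accessory subunits, -1.90. These 30 include Ndufa4 and Ndufa4l2, described below, which were placed in complex I by name. Ndufb9, an accessory subunit of the membrane arm, measured 13.5, 44.4 and 40.4 CPM in wild-type epidermis and 206, 191, 226 and 203 CPM in wild-type tongue. It was 6.18-fold lower in epidermis (log2 fold change -2.63, SE 0.36, adjusted p 0.000168 by edgeR) and 4.83-fold lower in the knockout. Ndufb10, of the same arm, was 5.78-fold lower in wild type and 4.73-fold lower in the knockout, and Ndufa5, an accessory subunit of the peripheral arm, 5.77-fold and 4.80-fold. No epidermis library overlapped a tongue library for these 3 genes. Ndufs5, at 2 to 17 reads a library, was the only nuclear complex I member tested in wild type that was not called.

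Complex II oxidises succinate and has no mitochondrially encoded subunit. All 4 of its genes were lower in epidermis in both genotypes, with medians of -2.33 in wild type and -2.03 in the knockout. Sdhd, a membrane anchor, measured 16.0, 31.1 and 30.7 CPM in wild-type epidermis, 25.4, 29.8, 31.8 and 24.0 CPM in knockout epidermis, 221, 204, 243 and 221 CPM in wild-type tongue and 209, 232, 170.5 and 237 CPM in knockout tongue. The groups were far apart, by 8.41-fold for wild types (log2 fold change -3.07, SE 0.25, adjusted p 5.62e-06 by edgeR) and 7.50-fold in the knockout (-2.91, SE 0.17, 5.02e-08). Sdhc, the other anchor, was 5.28-fold and 4.16-fold lower, and Sdha, the flavoprotein that binds succinate, 3.58-fold and 3.51-fold. Complex II took 4.22% to 6.11% of the nuclear sum in epidermis and 5.76% to 6.58% in tongue, and the highest epidermis share was that of WT 1.

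All 8 nuclear members of complex III, which passes electrons from ubiquinol to cytochrome c, were lower in both genotypes, with medians of -2.14 and -1.88. Uqcrc2, a core protein, was 5.68-fold lower in wild-type and 4.80-fold lower in knockout epidermis. Uqcrfs1, the Rieske iron-sulfur protein, measured 22.6, 45.0 and 49.4 CPM in wild-type epidermis and 226, 210, 235 and 224 CPM in wild-type tongue, a 5.64-fold difference (SE 0.26 on the log2 scale, edgeR adjusted p 2.89e-05). Uqcrc1, the other core protein, differed least, at 1.91-fold in wild type and 1.79-fold in the knockout.

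Of the 16 nuclear genes of the ATP synthase, 14 were lower in both genotypes, with medians of -2.01 and -1.76. Atp5b, the catalytic beta subunit and the most abundant nuclear member per length in tongue, measured 174, 452 and 463 CPM in wild-type epidermis and 1356, 1420, 1596 and 1538 CPM in wild-type tongue, a 4.02-fold difference (edgeR adjusted p 0.000659). Atp5e, the epsilon subunit, was 6.22-fold and 5.05-fold lower. The 3 genes of the c ring, Atp5g1 to Atp5g3, encode the same mature protein and did not all pass the test: Atp5g1 had log2 fold changes of -2.16 in wild type and -1.99 in the knockout and Atp5g3 of -2.41 and -2.19, while Atp5g2 had -0.41 (adjusted p 0.125) and -0.27 (adjusted p 0.231, both edgeR). Atp5g2 and Atp5g1 share much of their sequence with pseudogenes, as given above, and Atp5g3 shares no 37-base word. Atp5s, a factor that is no structural subunit, was the other gene of the group that was not called, at -0.50 and -0.35.

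**Figure D2:**
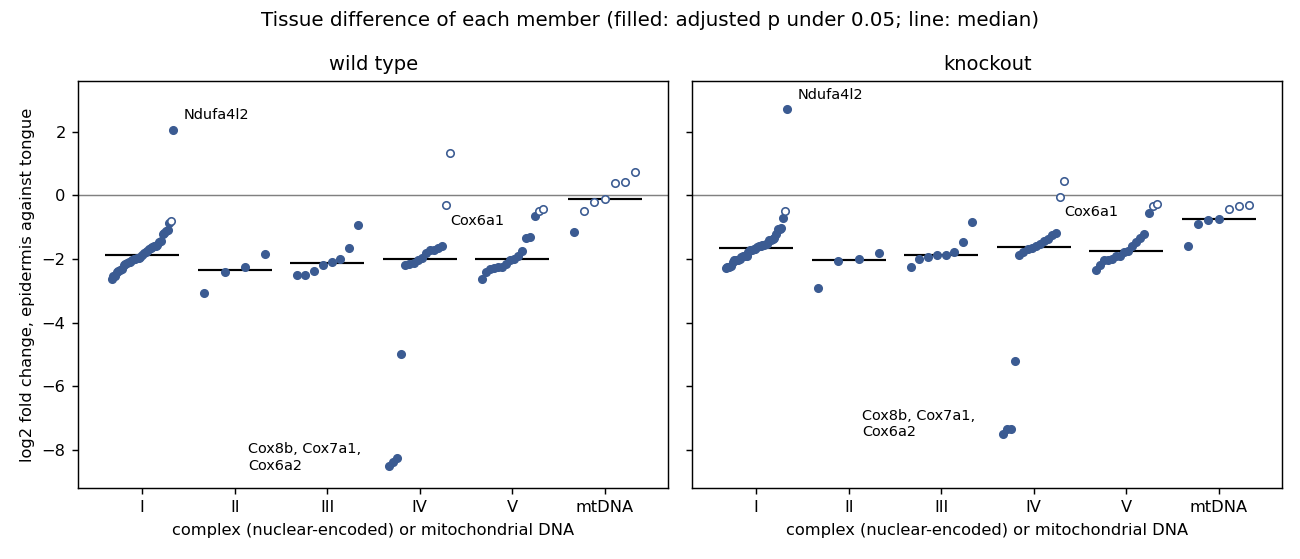
The log2 fold change of each tested member, epidermis against tongue, in wild type (left) and knockout (right), by complex for nuclear-encoded members and together for the 7 mitochondrially encoded ones. Filled points passed the edgeR threshold, and lines are medians, which lie between -2.33 and -1.61 for the nuclear complexes and at -0.10 and -0.73 for mitochondrial DNA.

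In complex IV, which reduces oxygen, 14 of 16 tested nuclear members were lower in both genotypes, and the muscle forms differed most. Cox6a2 was counted 1, 4 and 5 times in the 3 wild-type epidermis libraries and 5, 15, 3 and 4 times in the knockout ones, against 3277 reads summed over wild-type tongue and 3782 over knockout tongue. Its level in tongue was 63.4, 66.2, 65.1 and 74.7 CPM in wild type and 65.5, 78.9, 61.5 and 77.1 CPM in the knockout, and no epidermis library exceeded 1.24 CPM. The depth-scaled ratio of summed counts, tongue to epidermis, was 323 (95% counting interval 175 to 674) in wild type and 179 (123 to 273) in the knockout. Intervals of this kind cover counting error only. Cox7a1 had ratios of 368 (215 to 691) and 184 (133 to 263), and Cox8b of 405 (173 to 1249) and 196 (118 to 350). All 3 were called lower in epidermis in both genotypes, with log2 fold changes of -8.27 and -7.36 for Cox6a2, -8.40 and -7.35 for Cox7a1 and -8.52 and -7.50 for Cox8b (edgeR adjusted p at most 9.41e-07).

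The general forms of the same subunits ranged from no called difference to 4.53-fold. Cox6a1 measured 12.8, 44.5 and 38.9 CPM in wild-type epidermis and 39.7, 42.1, 39.0 and 41.8 CPM in wild-type tongue, and 26.6, 37.3, 42.0 and 41.5 CPM against 37.5, 43.9, 32.96 and 39.9 CPM in the knockout. The groups overlapped, and the difference did not pass the test: the log2 fold change was -0.31 (95% interval -1.06 to 0.43, edgeR adjusted p 0.43) in wild type and -0.04 (-0.42 to 0.35, adjusted p 0.863) in the knockout. Its sign depends on single libraries, and without epidermis WT 1 it was 0.05. Cox7a2 was 4.53-fold and 3.41-fold lower in epidermis, and Cox8a 3.13-fold and 2.29-fold, and both were called. Cox4i1, with the highest mean CPM of the nuclear complex IV members over all libraries, was 3.94-fold and 3.20-fold lower.

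The share of the muscle form in its pair, computed on CPM per kilobase of transcript, separated the tissues in all 15 libraries. Cox6a2 made up 57.3%, 56.9%, 58.4% and 60.0% of COX6A transcripts in wild-type tongue, 59.5%, 60.2%, 61.1% and 61.9% in knockout tongue and 0.32% to 2.73% in epidermis. Cox7a1 ranged from 36.4% to 39.0% among wild-type tongues, from 38.5% to 42.0% among knockout tongues and from 0.11% to 4.52% among epidermis libraries. For Cox8b the shares were 37.8% to 42.0%, 34.8% to 47.8% and, in epidermis, at most 3.05%. On CPM without length the Cox8b shares in tongue were 25.9% to 37.4% and the Cox7a1 shares 25.4% to 30.2%, so the size of these shares rests on the transcript lengths used. Among knockout epidermis libraries KO 2 had the highest Cox6a2 (1.24 CPM), Cox7a1 (1.74 CPM) and Cox8b (0.498 CPM) and also the highest skeletal muscle marker sum, 729 CPM against 93.3 to 214 CPM in the other 3. KO 2 was also highest for oral epithelium markers (464 CPM against 52.6 to 163) and adipocyte markers (26.5 against 9.02 to 14.8). Endothelial markers (8.05 CPM against 2.13 to 3.56) were highest there too, while keratinocyte, fibroblast and melanocyte markers were not. The part of RNA from muscle or other cell types in these few reads was not tested.

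**Figure D3:**
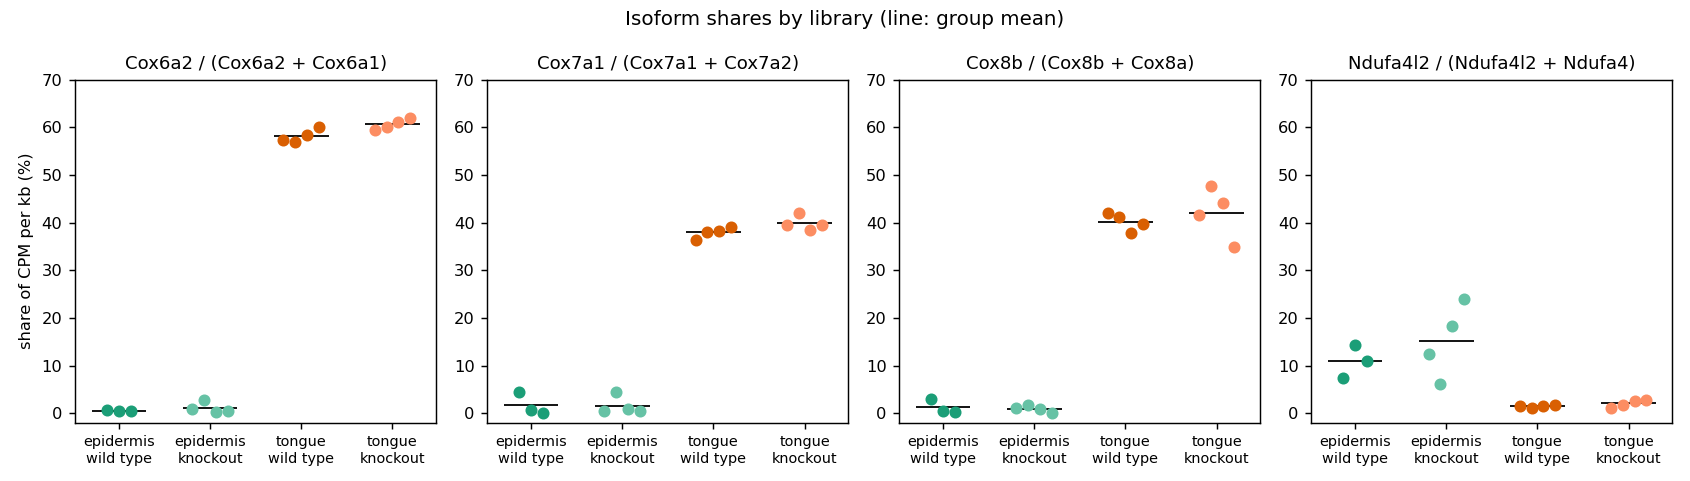
Share of the first gene in the summed CPM per kilobase of each pair, a point for each library and a line at each group mean. The muscle forms Cox6a2, Cox7a1 and Cox8b lie between 34.8% and 61.9% in tongue and at most at 4.52% in epidermis, and Ndufa4l2 lies between 6.05% and 23.9% in epidermis and at most at 2.80% in tongue.

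Cox4i2, an isoform known from lung and from low oxygen, was rare: 0 to 2 reads in each epidermis library and 0.896 to 2.77 CPM in tongue. The ratio of summed counts, tongue to epidermis, was 36.1 (12.0 to 178) in wild type and 45.7 (15.2 to 225) in the knockout. Forms known from testis were low and uneven in epidermis. Cox7b2 had 54, 0 and 5 reads in wild-type epidermis, 20, 1, 4 and 1 in knockout epidermis and at most 2 in a tongue library. Cox8c had 69, 0 and 7 reads in wild-type epidermis, 30, 1, 4 and 2 in knockout epidermis and 0 in all 8 tongue libraries. Cox6b2 had 61, 32 and 30 reads, then 56, 6, 21 and 27, and 9 to 24 in tongue, and its difference between tissues did not pass the test (log2 fold change 1.35, edgeR adjusted p 0.0567, in wild type and 0.46, 0.426, in the knockout). In wild type Cox6b2 was called higher in epidermis with all 4 groups in one fit (1.33, edgeR adjusted p 0.0492), without epidermis WT 2 (1.67, 0.0319) and without epidermis WT 3 (1.69, 0.0273), and its value without epidermis WT 1 was 0.31. Cox7b2 in wild type and Cox8c in the knockout were called higher in epidermis by DESeq2 and by edgeR without the filter on low counts. The libraries WT 1 and KO 1 were the highest of their epidermis groups for all 3 genes.

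Ndufa4l2 was the only member called higher in epidermis in both genotypes. It is a homologue of Ndufa4 that low oxygen is known to induce, while Ndufa4 itself, named for complex I and counted there here, is now assigned to complex IV. Ndufa4l2 measured 10.5, 41.0 and 30.3 CPM in wild-type epidermis, 25.9, 21.9, 62.6 and 96.6 CPM in knockout epidermis, 6.99, 5.10, 7.02 and 7.35 CPM in wild-type tongue and 4.84, 7.46, 7.17 and 12.97 CPM in knockout tongue. It was 4.197-fold higher in epidermis for wild types (log2 fold change 2.07, SE 0.38, adjusted p 0.00107 by edgeR) and 6.54-fold in the knockout (2.71, SE 0.50, 0.000792), with a wide spread among epidermis libraries. Ndufa4 measured 85.3, 159 and 160 CPM in wild-type epidermis and 298, 286, 310 and 267 CPM in wild-type tongue and was 2.12-fold lower. In the knockout Ndufa4 had a log2 fold change of -0.48 with overlapping groups (edgeR adjusted p 0.0771), and it was called without epidermis KO 2 (-0.64, 0.0365) and without tongue KO 3 (-0.64, 0.0203).

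Despite these differences the rank order of the nuclear members was much alike in both tissues. Across the 83 members, Spearman's correlation of mean CPM per kilobase was 0.79 between wild-type epidermis and wild-type tongue and 0.80 between the knockout tissues. These are correlations over genes that share libraries and are given as a description. Per length, Atp5b (771 ± 57.0, SD, n = 4, CPM per kilobase), Uqcrh (564 ± 32.8) and Ndufa4 (476 ± 30.3) led in wild-type tongue, while the median member was at 99.1. In wild-type epidermis Ndufa4 (221 ± 70.4, n = 3), Atp5b (189 ± 85.4) and Atp5a1 (140 ± 64.7) led, with a median of 27.3. The SDs are among libraries and do not compare genes measured in the same library. The complexes took these shares of the nuclear sum: complex I 28.6% to 32.3% in epidermis and 26.4% to 27.3% in tongue, complex III 9.99% to 10.5% and 10.9% to 11.4%, complex IV 14.6% to 16.7% and 14.8% to 16.6%, and complex V 36.4% to 40.7% and 39.1% to 40.5%. The ranges of the tissues did not overlap for complexes I and III and overlapped for complexes IV and V.

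The mitochondrially encoded members, of which mt-Co1, mt-Nd1 and mt-Cytb exceeded every nuclear member per length, showed a smaller tissue difference that turned on epidermis WT 1. Their sum was 26392 CPM in WT 1, 10222 in WT 2 and 12205 in WT 3, and 10480, 13116, 8996 and 11275 CPM in knockout epidermis. It was 21469, 15749, 20066 and 18124 CPM in wild-type tongue and 20275, 17699, 17533 and 19225 CPM in knockout tongue. Except for WT 1, every epidermis library lay below every tongue library. In wild type 1 of 7 members, mt-Nd6, was called lower, beside 31.6% of all genes (63.6% in either direction). The median log2 fold change was -0.10. Without WT 1, 4 of 7 were called lower (mt-Nd1, mt-Co1, mt-Nd6 and mt-Cytb) and the median was -0.66. In that fit 71.3% of all genes were called in either direction. Among the libraries of the A-number range 38, where 69.6% of all genes were called, these 4 were also called lower, with a median of -0.69. In the knockout the same 4 genes were called lower, with a median of -0.73, beside 31.1% of all genes (63.8% in either direction).

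The 7 genes kept 1 order per length in all 4 group means. In wild-type tongue mt-Co1, the catalytic subunit of complex IV, was highest (6032 ± 733 CPM per kilobase, n = 4), followed by mt-Nd1 of complex I (4333 ± 706), mt-Cytb of complex III (2514 ± 339), mt-Nd2 (815 ± 127) and mt-Nd5 (548 ± 65.3). mt-Nd6, the only protein-coding gene of the light strand, was lowest (114 ± 22.7). It measured 48.4, 14.6 and 17.1 CPM in wild-type epidermis, 20.5, 24.1, 11.5 and 13.9 CPM in knockout epidermis, 65.1, 45.0, 72.0 and 55.1 CPM in wild-type tongue and 65.8, 57.0, 27.9 and 62.2 CPM in knockout tongue. mt-Nd6 was 2.21-fold lower in epidermis for wild types (log2 fold change -1.14, SE 0.40, adjusted p 0.032 by edgeR, groups overlapping through WT 1) and 3.01-fold lower in the knockout (-1.59, SE 0.29, 0.000481). The wild-type call of mt-Nd6 was lost when any 1 of 5 libraries was left out: epidermis WT 2 (-0.86, edgeR adjusted p 0.0948), epidermis WT 3 (-0.91, 0.106), tongue WT 1 (-1.10, 0.0736), tongue WT 3 (-1.04, 0.0768) or tongue WT 4 (-1.18, 0.055). Without epidermis WT 1 it was -1.89. mt-Co1 measured 10574, 4279 and 4789 CPM in wild-type epidermis, 4121, 5794, 3946 and 4638 CPM in knockout epidermis, 10482, 7840, 9835 and 9122 CPM in wild-type tongue and 9263, 9141, 6773 and 9857 CPM in knockout tongue. Its log2 fold change was -0.48 (95% interval -1.33 to 0.38, edgeR adjusted p 0.294) in wild type and -0.90 (-1.43 to -0.37, 0.00659) in the knockout.

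mt-Nd1 had log2 fold changes of -0.10 in wild type and -0.73 in the knockout, and mt-Cytb of -0.20 and -0.78, the knockout values being called (edgeR adjusted p 0.0115 and 0.00464). mt-Nd2, mt-Nd4 and mt-Nd5 were not called in either genotype, with values of 0.75, 0.39 and 0.41 in wild type and -0.30, -0.35 and -0.43 in the knockout. Without WT 1 the values of mt-Nd2, mt-Nd4 and mt-Nd5 in wild type were 0.072, -0.15 and -0.14. Without epidermis WT 2, mt-Nd2 was called higher in wild-type epidermis (1.03, edgeR adjusted p 0.033). In range 38 alone, mt-Nd5 was called lower in knockout epidermis (-0.87, edgeR adjusted p 0.0425). Tongue KO 3 had the highest mt-Nd2 (1442 CPM against 725 to 1129), mt-Nd4 (1113 against 532 to 767) and mt-Nd5 (1884 against 895 to 1225) of its group and the lowest mt-Nd6, mt-Co1 and mt-Cytb.

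**Figure D4:**
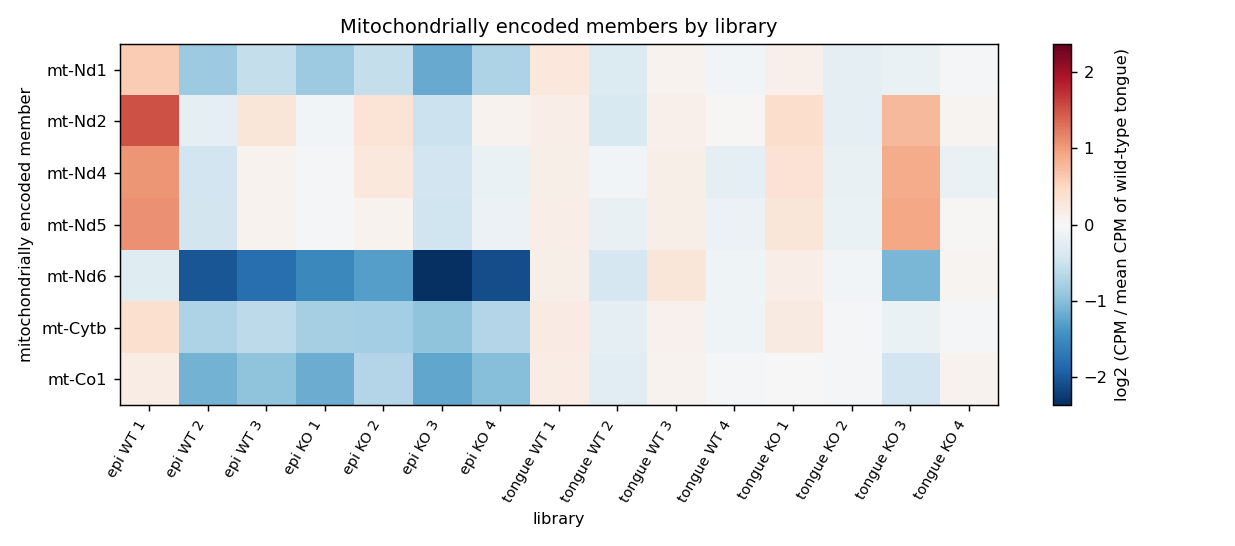
Level of each mitochondrially encoded member in each library, as the log2 of its CPM over the mean CPM of the 4 wild-type tongue libraries (epi, epidermis; red higher, blue lower). mt-Nd6 is low in all epidermis libraries but WT 1, where it is at 48.4 CPM, and tongue KO 3 is high for mt-Nd2, mt-Nd4 and mt-Nd5 and low for mt-Nd6 (27.9 CPM).

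Because the nuclear sum differed more than the mitochondrial one, their ratio was higher in epidermis. It was 15.5 in WT 1 and 2.62 and 3.26 in the other wild-type epidermis libraries, 3.48, 3.88, 2.20 and 2.86 in knockout epidermis, 1.77, 1.34, 1.53 and 1.45 in wild-type tongue and 1.73, 1.37, 1.87 and 1.48 in knockout tongue. The tissues did not overlap, with or without WT 1. For each 1000 CPM of the mitochondrial ribosomal RNAs the 7 members held 46.1 to 60.0 CPM in epidermis and 43.8 to 49.5 CPM in tongue. In WT 1 that value was 52.0, within the range of the other epidermis libraries. On library sizes computed from nuclear genes alone, the nuclear sums averaged 4724 and 18815 CPM in wild-type epidermis and tongue and the mitochondrial sums 24647 and 28673 CPM, with the same order of tissues.

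The knockout was compared with wild type to ask whether the subunits change when the proteases are targeted. In epidermis none of the 83 members tested passed the threshold, beside 0% of all 16073 genes, and none reached an unadjusted p under 0.05, as 187 of all genes (1.16%) did. DESeq2 also called none. Of the nuclear members 64 of 76 had log2 fold changes above 0 (50.2% of all genes did), with a median of 0.16, and all 7 mitochondrial members were below 0, with a median of -0.60. Both directions turned on WT 1: without it 10 of 77 nuclear members were above 0, with a median of -0.14, and 4 of the 7 mitochondrial members were above 0, with a median of 0.00. The mitochondrial gene with the smallest p, mt-Cytb, had a log2 fold change of -0.60 (95% interval -1.30 to 0.10, edgeR adjusted p 0.9998). mt-Nd1 had -0.71, mt-Nd2 -0.75 and mt-Co1 -0.53, and the groups overlapped for all 4. Groups did not overlap for 2.2% of all genes (1.26% with the knockout higher, 0.939% lower) and for none of the members. No skeletal muscle marker was called in this comparison, but 10 of 10 tested had log2 fold changes above 0, with a median of 1.16. Other cell types shared this: 6 of 6 fibroblast markers were above 0 (median 0.44) and 5 of 5 oral epithelium markers (0.63). Adipocyte, endothelial and melanocyte markers had 4 of 4 above 0 each, and keratinocyte markers 8 of 10. Leukocyte and mast cell markers had 2 of 4, and Schwann cell markers 0 of 2. The part of these cell types in the members' values was not tested.

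Within the A-number range 38, whose meaning the labels do not give and which holds 2 wild-type and 2 knockout epidermis libraries, 604 of 15760 genes (3.83%) passed the edgeR threshold, and Ndufa4l2 was the only member among them. It measured 41.0 and 30.3 CPM in these wild-type libraries and 62.6 and 96.6 CPM in these knockout libraries (log2 fold change 1.15, SE 0.22, adjusted p 0.0178 by edgeR). Over all 7 libraries its log2 fold change was 0.90 (95% interval -0.65 to 2.45, adjusted p 0.9998), and knockout libraries KO 1 and KO 2, at 25.9 and 21.9 CPM, lay below WT 2 and WT 3. The other ranges hold 1 wild-type library or none in epidermis and give no value of their own. With the range as a block in the fit the value was 1.19 (edgeR adjusted p 0.218).

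In tongue none of the 88 members tested was called, beside 0.0127% of all 15741 genes (2 genes), and none had an unadjusted p under 0.05, as 496 of all genes (3.15%) had. DESeq2 called none. The nuclear members had a median log2 fold change of -0.08 with 66 of 81 below 0 (51.8% of all genes were above 0), and the mitochondrial ones a median of -0.01. The library tongue KO 3 was the lowest of its group for 65 of 82 nuclear members, and without it the nuclear median was 0.02 with 37 of 81 below 0. The mitochondrial median was then 0.04, with 6 of 7 members above 0. No member had groups that did not overlap, beside 2.29% of all genes (0.858% with the knockout higher, 1.44% lower). The smallest p values belonged to the accessory subunits Ndufb4 (-0.25, SE 0.15) and Ndufb6 (-0.20, SE 0.12) and to mt-Nd5 (0.33, SE 0.21), each with an edgeR adjusted p of 0.939. Leaving out single libraries gave 0.067 to 0.46 for mt-Nd5. mt-Co1 had -0.09 (95% interval -0.42 to 0.24). Sdhd, with the widest tissue difference outside complex IV, had -0.07 (-0.32 to 0.18).

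The interaction term asked whether the knockout effect differs between epidermis and tongue. No member passed, beside 0% of 17935 genes, and 1 member, mt-Nd2, had an unadjusted p under 0.05 (-1.03, 95% interval -2.03 to -0.03, edgeR adjusted p 0.99996), as 299 of all genes (1.67%) had. The nuclear median was 0.25, with 73 of 81 above 0 (51% of all genes), and the mitochondrial median -0.62, and without epidermis WT 1 they were -0.05 and -0.13. Ndufa4 had 0.60 (SE 0.34) and mt-Nd5 -0.83 (SE 0.43), neither called. Leaving out epidermis WT 1 gave -0.37 for mt-Nd2 and -0.29 for mt-Nd5. For Ndufa4, single libraries left out gave 0.35 to 0.75.

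**Figure D5:**
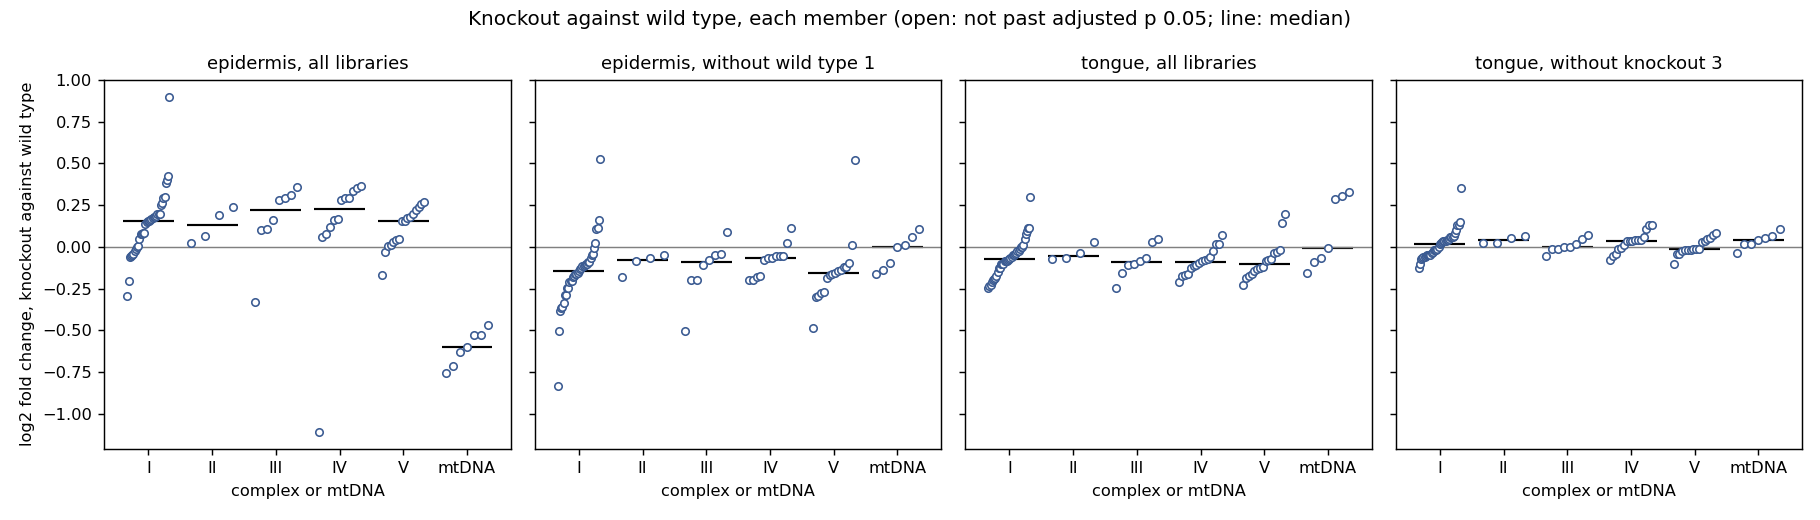
The log2 fold change of each tested member, knockout against wild type, in epidermis and in tongue, with all libraries and without the library that stood apart, by complex or mitochondrial DNA (line: median). No member passed the threshold, and the epidermis medians change sign or reach 0.00 when epidermis WT 1 is left out (nuclear 0.16 to -0.14).

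Other genes of mitochondrial energy metabolism, from lists that use none of the members, were compared between tissues in wild type, where 31.6% of all genes were called lower in epidermis and 32% higher. Of 14 genes of the citric acid cycle and pyruvate dehydrogenase 11 were lower in epidermis and none higher (median -2.12), with Idh3a at 28.2 ± 9.59 CPM in epidermis (SD, n = 3) and 257 ± 20.1 CPM in tongue (n = 4). Of 46 assembly factors for the complexes 28 were lower and 1 higher (median -0.86). The higher one was Acad9, a complex I assembly factor, at 130 ± 27.0 CPM in epidermis and 25.8 ± 2.47 CPM in tongue. Of 77 mitochondrial ribosomal protein genes 51 were lower and 2 higher (median -0.78). Of 9 subunits and carriers outside the name rule 7 were lower, among them Cycs, cytochrome c, with a log2 fold change of -3.05 (SE 0.24).

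Of 11 mitochondrial carriers and energy transfer genes 7 were lower and 1 higher (median -1.49), and Slc25a4, the ADP/ATP carrier of heart and muscle, measured 37.4 ± 17.5 CPM in epidermis and 1064 ± 49.8 CPM in tongue. Of 20 genes for mitochondrial DNA expression and biogenesis 7 were higher and 7 lower (35% each, median -0.30), close to the 32% and 31.6% of all genes. Ppargc1a, a coactivator of mitochondrial biogenesis, was among the lower ones, at 0.492 ± 0.109 CPM in epidermis and 39.7 ± 13.2 CPM in tongue. Of 17 glycolysis genes 10 were lower and 3 higher, and Eno3, the muscle enolase, led with a log2 fold change of -8.30 (SE 0.33). The knockout tissues, where 31.1% of all genes were called lower and 32.7% higher, gave 11 of 14 citric acid cycle genes lower, 29 lower and 2 higher of 46 assembly factors and 49 lower and 2 higher of 77 ribosomal protein genes. No gene of these lists was called between knockout and wild type in epidermis or tongue.

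Promoters of the nuclear members were compared with those of all genes over the 250 bases before the RefSeq start site (GRCm38.p6), for the 68 of 83 members that matched. The motif of NRF1, a factor known for nuclear respiratory genes, was searched on both strands as GCGCA and GCGC separated by any 1 base and occurred in 13 members (19.1%) and in 4.23% of 27025 genes. The ETS motif CCGGAAG occurred in 12 members (17.6%) and in 7.83% of genes. Members and all genes had the SP1 motif GGGCGG in 36.8% and 35.4%, the ERR motif AAGGTCA in 7.35% and 4.70%, the YY1 motif AAGATGGC in 1.47% and 1.83% and TATAAA in 8.82% and 14.3%. The E-box CANNTG occurred in 63.2% and 69.3%, its special case CAGCTG in 8.82% and 14.7%, and the MEF2 motif (CTA and TAG separated by any 4 bases) in 1 member and in 1000 of all genes. GC content was 56.2% in members and 52.0% in all genes (medians), and the motifs differ in their own GC content. A match is a run of letters, not a shown binding site.

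The promoter of Cox6a1, whose level did not separate the tissues, and that of Cox8b, which had the largest difference, are shown on the strand of the gene. They lie at chr5:115348959-115349208 and chr7:140900447-140900696 (GRCm38.p6, both on the minus strand). Capitals mark NRF1 matches and, near the end, a reverse ETS match in Cox6a1, and the CAGCTG match in Cox8b. The other isoform promoters examined did not repeat these matches. The muscle form Cox7a1 had 0 CAGCTG and 0 MEF2 matches, and the general forms Cox7a2 and Cox8a had 0 NRF1 and 0 ETS matches. A link between motif and tissue was not tested.
Cox6a1 promoter: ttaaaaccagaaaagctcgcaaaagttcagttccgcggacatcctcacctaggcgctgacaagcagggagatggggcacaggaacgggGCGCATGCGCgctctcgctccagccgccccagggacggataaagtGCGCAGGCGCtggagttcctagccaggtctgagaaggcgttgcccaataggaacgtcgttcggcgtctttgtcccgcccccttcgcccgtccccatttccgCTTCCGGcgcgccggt
Cox8b promoter: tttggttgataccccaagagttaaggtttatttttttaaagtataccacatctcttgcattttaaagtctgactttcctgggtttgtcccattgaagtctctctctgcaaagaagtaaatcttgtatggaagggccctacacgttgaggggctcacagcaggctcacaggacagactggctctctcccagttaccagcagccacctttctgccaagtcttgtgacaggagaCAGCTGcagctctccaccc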

How the data were processed

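RNA from 15 samples was measured by paired-end RNA-seq (SMARTer V4 and TruSeq v2 kits, 37-base reads, NextSeq500, per the labels' protocols). The submitters' processing notes list STAR 2.5.2a, GRCm38.p3, mm10, DESeq2, edgeR and limma, with no roles. Which counter, strand setting and annotation were used is not given in the sources used here. Deposited tables hold whole-read counts per gene, which were tested, and signal values from the authors, in which each count is divided by a constant of its library (checked: 99.98% to 100% of values a library gave a whole count within 0.01). The signal table was used only as an alternative for levels.

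Genes were filtered with filterByExpr (minimum count 10), scaled by TMM and tested with edgeR 4.0.16 (R 4.3.3; quasi-likelihood F test, robust, two-sided) within each comparison, or over all 4 groups for the interaction. Benjamini-Hochberg adjustment ran over every gene tested, at a threshold of 0.05, and intervals are at 95%. Levels are CPM on 1 TMM scale over 15 libraries. CPM per kilobase uses the GENCODE M21 transcript picked by APPRIS, support level and then shortest length. The 2 transgene entries were left out. Alternatives were DESeq2 1.42.0, other scalings, no filter, joint and blocked fits, 1 range of A-numbers, and single libraries left out. The fits were also run on simulated data with known changes. These data were drawn from the fitted spread, with no outlying library and no shared animals, so they do not check how the fits handle either.

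The members, gene lists and tests were chosen with earlier results of these data known. Named genes follow a rule: the mitochondrial members, the isoform pairs, the most abundant member of each complex and up to 2 members per complex and direction with the largest change among called, non-overlapping members at a mean CPM of 1 or more, and for the knockout comparisons the 3 smallest p and mt-Co1. From each other list, up to 3 called genes by size could be named. Others are named where a count needed it, after their values were seen. The labels do not say beyond A-numbers that samples of a group were separate animals, so p-values describe only the spread among these libraries, which may be technical. Replicate numbers pair the knockout tissues, whose libraries come from the same animals, but do not match animals between the wild-type tissues. The interaction fit had no term for animals that gave both tissues. In epidermis, deviations of same-numbered knockout and wild-type libraries, from different animals, had correlations of 0.591, 0.106 and 0.493. The pairs at 0.591 and 0.493 each share an A-number range, and the pair at 0.106 does not. In tongue, where every such pair shares a range, the correlations were 0.573, 0.118, -0.135 and 0.227. Adding the replicate block called none of the members in epidermis, as without it.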

Additional observations from a re-analysis of the deposited data

Results flagged for a closer look

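In groups of 4 libraries, a library was singled out where its gap to the nearest of the others took up most of the group's range (Dixon's criterion at 95%). Of 142 combinations of value and group, 14 were singled out. By chance the criterion singles out about 1 in 20 where values are independent and normally spread. These combinations share libraries and some rest on few reads, so the count is not a test against that rate.

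Tongue KO 3 accounted for 5 of them. It had the highest mt-Rnr1, 78262 CPM against 20921 to 23461 in the other 3, and the lowest mt-Rnr2, the large mitochondrial ribosomal RNA, 311456 CPM against 378331 to 386092. It also had the lowest Ndufa4 (172 CPM against 282 to 294), Ndufa5 (41.3 CPM against 89.81 to 95.002) and Uqcrfs1 (157 CPM against 223 to 232).

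Epidermis KO 2 had the highest share of Cox7a1 in its pair, 4.35% against 0.378% to 0.938%, the highest Cox6a2, 1.24 CPM against 0.162 to 0.262, and the lowest Ndufa5, 13.03 CPM against 17.3 to 17.5. Epidermis KO 1 had the lowest Cox7b (59.1 CPM against 87.1 to 92.6) and Ndufb6 (9.07 CPM against 12.4 to 12.7) and the highest Cox7b2 (1.05 CPM against 0.0560 to 0.215) and Cox8c (1.57 CPM against 0.0830 to 0.215). Tongue KO 2 had the highest Cox6b2, 1.79 CPM against 0.896 to 0.983, and tongue WT 2 the lowest Ndufa4l2, 5.10 CPM against 6.99 to 7.35.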

How the results depend on the processing

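The count of members higher in epidermis in wild type (1) was 2 with DESeq2 and without the filter (adding Cox7b2) and with all 4 groups in one fit (adding Cox6b2), and 1 to 3 when single libraries were left out (3 without epidermis WT 2, adding Cox6b2 and mt-Nd2). In the knockout it was 2 instead of 1 with DESeq2 and without the filter (adding Cox8c). Knockout against wild-type epidermis gave 1 call in the A-number range 38 and 0 otherwise. Leaving out single libraries gave 74 to 80 members lower in epidermis in wild type and 78 to 79 in the knockout. The cause of these changes was not tested. The replicate block gave 75 nuclear members lower in wild type and 74 in the knockout, as many as without it, and 0 calls between genotypes. In wild type the replicate numbers do not match animals, so the block cannot check pairing there.

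Log2 fold changes of some named members crossed 0, and no value past 0 was called. In wild type, range 38 alone gave mt-Nd2 -0.0305, mt-Nd4 -0.14, mt-Nd5 -0.18 and Cox6a1 0.033. The 2 animals that gave both tissues, with animal as block (added after the data were seen), gave -0.052, -0.15, -0.20 and 0.031. Leaving out single libraries gave ranges of -0.70 to 0.14 for mt-Nd1, -0.15 to 0.65 for mt-Nd4, -0.14 to 0.67 for mt-Nd5 and -0.63 to 0.051 for Cox6a1. In the knockout Cox6a1 was 0.17 in range 38 and -0.11 to 0.10 without single libraries, and Cox6b2 -0.055 to 0.75. For mt-Co1 the ranges were -0.77 to 0.0012 (epidermis, knockout against wild type), -0.16 to 0.015 (tongue) and -0.62 to 0.12 (interaction, 0.089 in range 38).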
